A study of Mus musculus with 7 samples.

Results

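The Bcl2 family decides at the outer membrane of mitochondria whether a cell survives or dies, and 10 of its genes were examined here in the inner cell mass of the mouse blastocyst. They were taken by symbol from a table of 52636 genes: the anti-apoptotic Bcl2, Bcl2l1 and Mcl1, the pore formers Bax and Bak1, and the BH3-only genes Bcl2l11, Bid, Bad, Bbc3 and Pmaip1. Each symbol matched 1 Ensembl gene. Of the 10 genes, 9 passed the filter on low counts and were tested among 16248 genes, and Bcl2 did not pass it.

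The embryos carried Sox2Cre, in which Sox2 sequences drive Cre, and CRAFR26, an inducible form of the kinase cRAF that switches on ERK when tamoxifen is given. They were flushed at embryonic day 2.5 and grown for 24 h in KSOM with 250 nM PD173074, an FGF receptor inhibitor, and both groups shared this genotype and this inhibitor. One group received 250 nM 4OHT (4-hydroxytamoxifen, here tamoxifen) for 4 h and the other received ethanol as vehicle for 4 h, which the labels call 0 h. Trophectoderm was stripped by immunosurgery, and 10 inner cell masses were pooled for each library. There were 3 vehicle libraries (clone4_1, clone4_2, clone8_1) and 4 tamoxifen libraries (clone4_1, clone4_2, clone8_1, clone8_2), named by the embryonic stem cell clone from which the mouse line came and by number; a further vehicle library had been discarded at quality control. Each clone is a single clone, and no group lacked the construct, so an effect of tamoxifen itself and an effect of ERK cannot be told apart.

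Anti-apoptotic members of the family hold the pore formers in check, and BH3-only members bind the anti-apoptotic members or activate the pore formers directly. Once Bax and Bak open the membrane, cytochrome c leaves the mitochondria and caspases are activated. ERK acts on this family mostly as a survival signal: it is known to mark the Bcl2l11 protein Bim for degradation and to lower Bcl2l11 transcription through FoxO factors, and its kinase Rsk phosphorylates Bad. In the early epiblast, apoptosis removes surplus or poorly fit cells. RNA counts, as used here, do not report protein or its phosphorylation, and counts per gene do not separate the isoforms of Bim or of Bcl2l1.

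Libraries held 22981498 to 42294719 counts. The labelled cell type is E3.5 Epiblast, and epiblast markers were present (Nanog, 428 to 705 CPM, a gene's count over the library's total, scaled with TMM factors). Markers of trophectoderm were also present in every library, with Krt8 between 2250 and 3837 CPM, so the libraries were not of epiblast alone. Vehicle clone8_1 stood apart: for the 914 protein-coding genes whose typical transcript (the median over a gene's basic coding transcripts) measures 600 to 1000 nt, it sat at a median of -1.16 (log2) relative to each gene's median library, while the other 6 libraries lay between -0.025 and 0.20. For 3367 genes of 1000 to 2000 nt the deviation of this library was 0, and for 5452 genes of 2000 to 4000 nt it was 0.033. Bax (834 nt) is the member in the class of 600 to 1000 nt.

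Tamoxifen for 4 h was set against vehicle to ask whether ERK moved the transcripts of this family. The BH3-only gene Bcl2l11 was lower with tamoxifen (14.5 ± 4.10 CPM, SD, n = 3, against 8.82 ± 1.35 CPM, SD, n = 4) and the pore former Bak1 was higher (3.53 ± 0.647 CPM, SD, n = 3, against 6.81 ± 2.04 CPM, SD, n = 4). In these 2 genes, each 1 of the 9 tested members, the libraries of the groups did not overlap. Across all genes tested, the groups did not overlap with higher values under tamoxifen in 3.71% and with lower values in 4.74%. Leaving out a library cannot make groups overlap that were apart, so both genes had to stay apart without vehicle clone8_1. The members apart were then still 1 higher and 1 lower, beside 7.72% and 8.94% of all genes. No member was called at an adjusted p under 0.05 in edgeR (quasi-likelihood, Benjamini-Hochberg over all genes), nor was any other gene (0%). At an unadjusted p under 0.05 in edgeR there were 2 members (Bcl2l11 and Bak1) and 970 genes in all, and DESeq2 called 4 genes, none of them a member. The median log2 fold change was 0.11 over the 9 members and 0.019 over all genes tested.

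**Figure D1:**
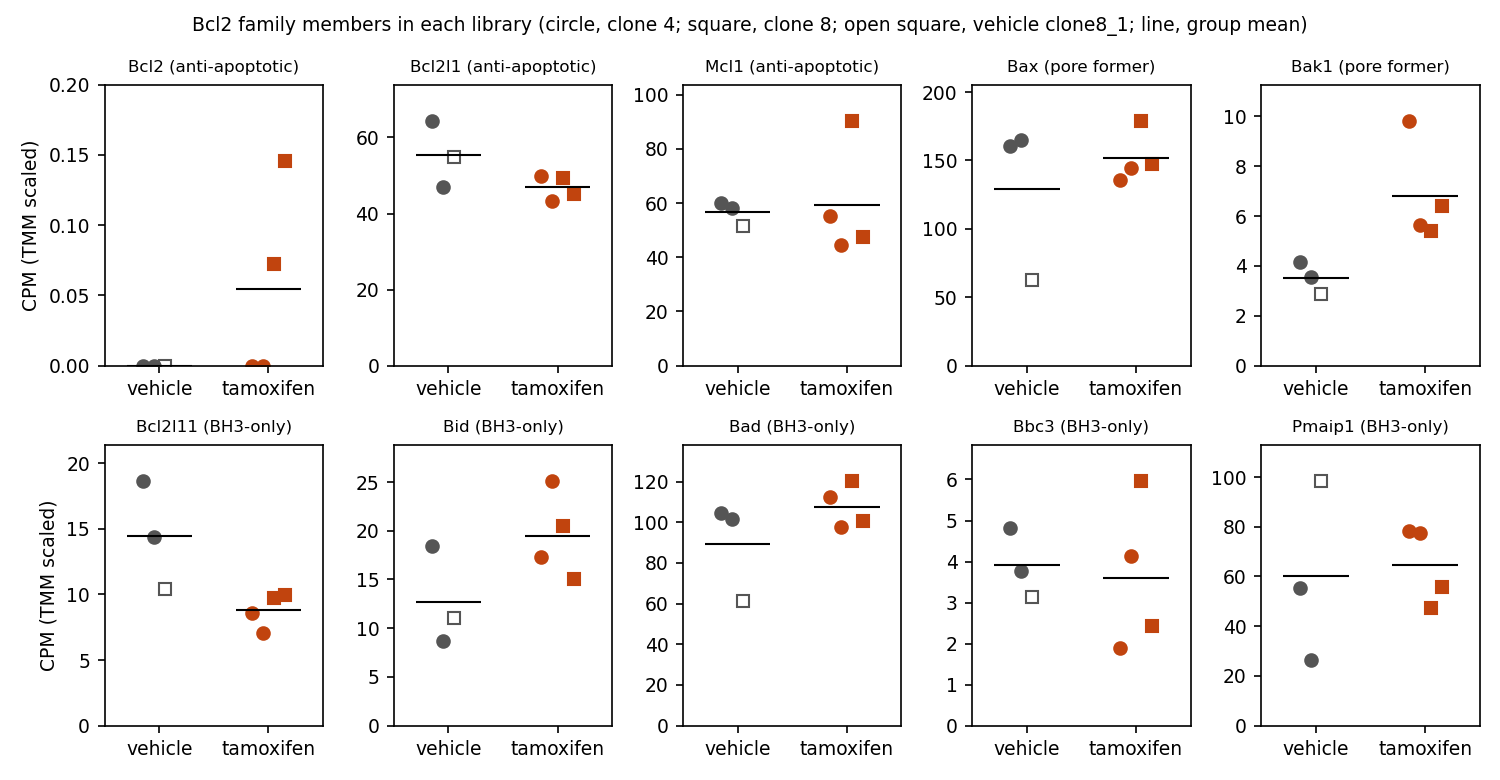
CPM (TMM scaled, linear axis from 0) of the 10 members in each library; circles are clone 4, squares clone 8, the open square is vehicle clone8_1, and lines are group means. Groups are apart for Bcl2l11 (all tamoxifen libraries at or under 9.95 CPM) and Bak1 (all at or above 5.38 CPM), and Bax and Bad are lowest in vehicle clone8_1.

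The anti-apoptotic genes were led by Mcl1 and Bcl2l1. Bcl2 (ENSMUSG00000057329, chromosome 1, 106538178 to 106714274, minus strand), the founding member, had no count in the 3 vehicle libraries or in tamoxifen clone4_1 and clone4_2. It had 2 counts in tamoxifen clone8_1 and 6 in tamoxifen clone8_2. In the libraries without a count, 3 counts, the limit that a count of 0 allows, would be 0.0710 to 0.129 CPM, for counting error only. Bcl2 was therefore at or near the detection limit in both groups, and no fold change is given.

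Mcl1 (ENSMUSG00000038612, chromosome 3, 95658788 to 95663176, plus strand) encodes a short-lived anti-apoptotic protein that the early embryo needs. It measured 60.1, 58.3 and 51.6 CPM in vehicle clone4_1, clone4_2 and clone8_1. In tamoxifen clone4_1, clone4_2, clone8_1 and clone8_2 it measured 55.3, 44.4, 90.2 and 47.4 CPM. Tamoxifen clone8_1 was above every other library and the remaining 3 tamoxifen libraries were below 2 of the 3 vehicle ones. The log2 fold change was 0.07 ± 0.25 (SE; adjusted p = 0.960, edgeR), and without tamoxifen clone8_1 it was -0.21 ± 0.17 (SE). Its sign also turned without vehicle clone8_1 (-0.0060).

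Bcl2l1 (ENSMUSG00000007659, chromosome 2, 152780668 to 152831728, minus strand) encodes Bcl-xL and, by alternative splicing, the pro-apoptotic Bcl-xS. It stood at 64.3, 46.9 and 54.9 CPM in vehicle clone4_1, clone4_2 and clone8_1, and at 49.8, 43.4, 49.3 and 45.2 CPM in tamoxifen clone4_1, clone4_2, clone8_1 and clone8_2. The tamoxifen values lay in a narrow band that only vehicle clone4_2 entered. Its log2 fold change was -0.24 ± 0.17 (SE; adjusted p = 0.803, edgeR; exact permutation p = 0.114 on log2 CPM, two-sided), negative in each of the 18 alternative analyses (-0.35 to -0.13). Without vehicle clone4_2 its groups were apart, as were those of 18.0% of all genes.

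Of the pore formers, Bak1 was the member that differed most. Bak1 (ENSMUSG00000057789, chromosome 17, 27019810 to 27029009, minus strand) encodes Bak, which sits in the mitochondrial membrane and is held by Mcl1 and Bcl-xL. It had 4.17, 3.55 and 2.88 CPM (168, 114 and 118 counts) in vehicle clone4_1, clone4_2 and clone8_1. In tamoxifen clone4_1, clone4_2, clone8_1 and clone8_2 it had 9.80, 5.65, 5.38 and 6.41 CPM (414, 131, 149 and 264 counts). Each tamoxifen library lay above each vehicle library, with clone4_1 the highest of its group in both. Bak1 had a log2 fold change of 0.95 ± 0.34 (SE), a 1.93-fold higher level (adjusted p = 0.794, edgeR). The exact permutation p was 0.0286 (two-sided), the smallest that 3 against 4 libraries can give, unadjusted and 1 of 9 such tests. The difference was 0.94 in clone 4 and 1.02 in clone 8 on the log2 scale. The interaction of clone and condition was 0.03 ± 0.68 (SE, edgeR). The clone 8 difference and the interaction rest on vehicle clone8_1, the single vehicle library of its clone. Bak1 was lowest in that library (2.88 CPM, a deviation of -0.89 on the log2 scale from its median library). Leaving out 1 library at a time gave 0.70 (without tamoxifen clone4_1) to 1.07, with 0.81 ± 0.37 (SE) without vehicle clone8_1, and adjusted p-values over the 18 alternatives ran from 0.393 to 0.961.

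Bak1 shares 437 nt of exon with Ggnbp1 on the other strand, and whether the counting used strand is not given in the sources used here. Ggnbp1 stood at 3.03, 5.01 and 0.292 CPM in vehicle clone4_1, clone4_2 and clone8_1 and at 4.26, 2.20, 4.08 and 4.54 CPM in tamoxifen clone4_1, clone4_2, clone8_1 and clone8_2. Its groups overlapped (log2 fold change 0.45 ± 0.72, SE). The part of Ggnbp1 reads in the Bak1 difference was not tested.

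Bax (ENSMUSG00000003873, chromosome 7, 45461697 to 45466898, minus strand) encodes the pore former that moves from the cytosol to the mitochondria. It was at 161 and 165 CPM in vehicle clone4_1 and clone4_2, but at 62.3 CPM in vehicle clone8_1. Tamoxifen clone4_1, clone4_2, clone8_1 and clone8_2 had 136, 144, 179 and 147 CPM. Tamoxifen libraries thus lay on both sides of the 2 vehicle libraries of clone 4 and well above vehicle clone8_1. The log2 fold change was 0.23 ± 0.30 (SE; adjusted p = 0.878, edgeR) with all libraries and -0.11 ± 0.15 (SE) without vehicle clone8_1, so its direction turned with that library. Bax lay 1.24 below its median library there (deviation -1.24, log2), close to the median of -1.16 for genes of its length. Bax shares 192 nt of exon with Gm45808 on the same strand, and Gm45808 had no count in any library.

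Among the 9 members, Bax alone had a called interaction between clone and condition, at a log2 value of 1.60 ± 0.28 (SE; adjusted p = 0.0203, edgeR). The same term was called in 3.16% of all genes, and it rests on vehicle clone8_1 as the single vehicle library of its clone. With an offset for transcript length the value was 0.74 (adjusted p = 0.290, edgeR).

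**Figure D2:**
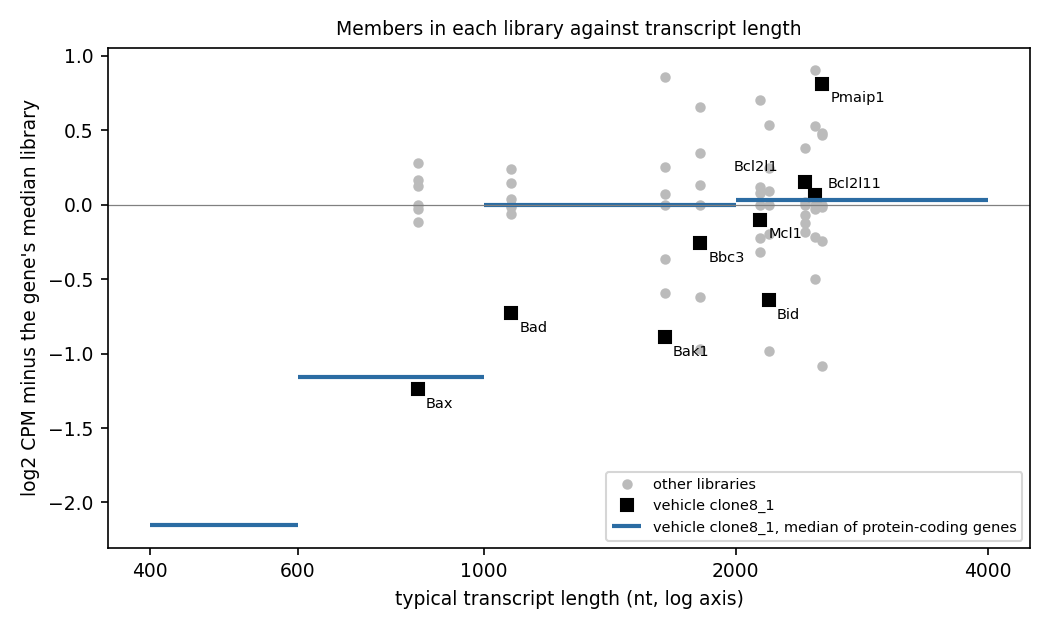
Each member's log2 CPM minus the value of its median library, against typical transcript length (log axis); black squares are vehicle clone8_1, grey dots the other 6 libraries, and blue bars the median over protein-coding genes of a length class in vehicle clone8_1. Bax (-1.24) lies near the bar of its class (-1.16), and Bcl2l11 (0.067) lies near the bar of its own (0.033). Bak1 (-0.89) and Bad (-0.73) lie well below their bar (0). Bid (-0.64) lies well below its bar (0.033) and Pmaip1 (0.81) well above the same bar.

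Among the BH3-only genes, Bcl2l11 (ENSMUSG00000027381, chromosome 2, 128126038 to 128162547, plus strand) encodes Bim, which binds all the anti-apoptotic proteins and activates Bax and Bak. FoxO factors are known to bind and activate Bcl2l11 and Bbc3. The 250 bases before the first RefSeq start site of Bcl2l11 and before the second start site of Bbc3 are shown (RefSeq, GRCm38.p6, plus strand, 5′ to 3′) because these are the member windows that hold the FoxO core letters GTAAACA, given in capitals, on the plus strand in Bcl2l11 and on the minus strand in Bbc3.
Bcl2l11, chr2:128125788-128126037: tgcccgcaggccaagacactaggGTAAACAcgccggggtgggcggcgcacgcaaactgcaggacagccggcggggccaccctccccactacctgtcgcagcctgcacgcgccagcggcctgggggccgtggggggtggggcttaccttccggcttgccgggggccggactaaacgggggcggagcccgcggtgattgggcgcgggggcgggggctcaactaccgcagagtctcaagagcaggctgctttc
Bbc3, chr7:16310011-16310260: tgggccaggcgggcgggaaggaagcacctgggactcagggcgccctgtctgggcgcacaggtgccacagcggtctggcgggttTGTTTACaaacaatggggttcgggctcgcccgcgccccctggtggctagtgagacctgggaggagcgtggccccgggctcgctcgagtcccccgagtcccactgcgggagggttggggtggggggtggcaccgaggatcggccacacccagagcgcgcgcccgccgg
The capitals begin 227 bases before the start site in Bcl2l11 and 167 bases before it in Bbc3. The Bcl2l11 window lies directly upstream of the gene, and the Bbc3 window lies within the gene and holds no exon base.

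Of 15 start sites of 9 members (Pmaip1 had no entry), 2 windows held GTAAACA on either strand, against 3.17% of 32851 windows of this length across the genome. The ETS core CCGGAAG was in 2 member windows (Mcl1, and Bcl2l11 on the minus strand, 105 bases before the first start site) and in 6.91% of all windows. The AP-1 letters TGANTCA were in none of the 15 and in 6.75% of all. These matches describe letters, and no binding was measured.

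Bcl2l11 measured 18.6 CPM in vehicle clone4_1 (751 counts), 14.4 CPM in clone4_2 (462 counts) and 10.4 CPM in clone8_1 (428 counts). With tamoxifen it measured 8.55 CPM in clone4_1 (361 counts), 7.03 CPM in clone4_2 (163 counts), 9.75 CPM in clone8_1 (270 counts) and 9.95 CPM in clone8_2 (410 counts). Every tamoxifen library lay below every vehicle library, but vehicle clone8_1 exceeded tamoxifen clone8_2 by little. For Bcl2l11 this gave a log2 fold change of -0.71 ± 0.27 (SE), a 1.64-fold lower level (adjusted p = 0.794, edgeR). The exact permutation p was 0.0286 (two-sided), again the smallest the design allows and unadjusted. Groups stayed apart with total-count, DESeq2 and upper-quartile scaling as well as with TMM, for Bcl2l11 and for Bak1.

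The difference in Bcl2l11 was larger in the libraries of clone 4. Within clone 4 it was -1.07 on the log2 scale (2 libraries against 2), and within clone 8 it was -0.082 (2 against 1, with no test of its own). Clone 8 has 1 vehicle library, so clone and that library cannot be told apart. An edgeR fit on the clone 4 libraries gave -1.09 ± 0.31 (SE; adjusted p = 0.550). The interaction of clone and condition was 1.00 ± 0.51 (SE; adjusted p = 0.408, edgeR), so a difference between clones was not called. In vehicle clone8_1 the median deviation of genes of 2000 to 4000 nt was 0.033, and that of Bcl2l11 was 0.067. The other members of this class deviated by -0.64 (Bid), -0.10 (Mcl1), 0.15 (Bcl2l1) and 0.81 (Pmaip1). The part of that library in the Bcl2l11 values was not tested. Without vehicle clone8_1 the fold change of Bcl2l11 was -0.91 ± 0.27 (SE; adjusted p = 0.746, edgeR), while without vehicle clone4_1 it was -0.51 ± 0.29 (SE). Over the 18 alternatives the adjusted p ran from 0.482 (DESeq2) to 0.961.

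Marker genes of other cell types were read beside Bcl2l11, and none of them was called. All 10 trophectoderm markers had lower values with tamoxifen (median log2 fold change -0.33), beside 7840 of the 16248 genes tested. Gata3 and Elf3, 2 of these 10 markers, had groups apart, beside 8.45% of all genes tested. The summed level of the list overlapped between groups, at 8530 to 11227 CPM in vehicle and 6546 to 9535 CPM in tamoxifen libraries, and no marker was at 0 in any library. Krt8 (2250 to 3837 CPM) and Krt18 (1969 to 4127 CPM) were the largest parts of that sum. Of the primitive endoderm list, 6 of 9 tested genes were higher. Sox17 and Lama1, 2 of the 9, had groups apart, beside the same 8.45% of all genes. Their log2 fold changes were 2.58 ± 0.75 and 1.35 ± 0.36 (SE). The summed level of this list was 845 to 1148 CPM in vehicle and 884 to 1031 CPM in tamoxifen libraries, with Sox7 at 0 in at least 1 library. Dab2 alone was at 560 to 823 CPM, so this sum says little of the other markers. Of the naive epiblast list, 7 of 9 tested genes were higher (1665 to 2044 CPM and 1708 to 2199 CPM). In pooled tissue, fewer cells of a type and less RNA per cell cannot be told apart, and the part of cell makeup in the differences of Bcl2l11 and Bak1 was not tested.

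Bid (ENSMUSG00000004446, chromosome 6, 120891930 to 120916853, minus strand) encodes a BH3-only protein that caspase 8 cleaves into its active form. Its values were 18.4, 8.69 and 11.0 CPM in vehicle clone4_1, clone4_2 and clone8_1, and 17.3, 25.1, 20.5 and 15.1 CPM in tamoxifen clone4_1, clone4_2, clone8_1 and clone8_2. Vehicle clone4_1 alone reached into the tamoxifen range. The log2 fold change was 0.61 ± 0.31 (SE; adjusted p = 0.794, edgeR; exact permutation p = 0.143, two-sided). Without vehicle clone4_1 it was 0.96 ± 0.30 (SE; adjusted p = 0.551, edgeR, the lowest of 18 alternatives, up to 0.961) and the groups were apart, as in 21.8% of all genes, and without vehicle clone4_2 it was 0.40 ± 0.32 (SE). Bid shares 628 nt of exon with Bcl2l13 on the other strand, a family gene whose own log2 fold change was -0.35 ± 0.18 (SE).

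Bad (ENSMUSG00000024959, chromosome 19, 6941861 to 6951899, plus strand) encodes the sensitizer that survival kinases keep phosphorylated and bound to 14-3-3 proteins. It was at 105 and 102 CPM in vehicle clone4_1 and clone4_2 and at 61.4 CPM in vehicle clone8_1. Tamoxifen clone4_1, clone4_2, clone8_1 and clone8_2 had 112, 97.6, 120 and 101 CPM. All libraries but vehicle clone8_1 lay close together. Bad deviated by -0.73 (log2) in that library. The median of its length class, 1000 to 2000 nt, was 0 there, but Bad (1079.5 nt) lies near the lower edge of that class. The class below, 600 to 1000 nt, was at -1.16. The log2 fold change of 0.27 ± 0.21 (SE; adjusted p = 0.807, edgeR) became 0.052 without vehicle clone8_1. With the offset for transcript length it was 0.14 ± 0.15 (SE). The interaction of clone and condition went from 0.82 to 0.38 with that offset. The part of transcript length in the values of Bad was not tested further. Bad shares 524 nt of exon with Gpr137 on the other strand.

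Bbc3 (ENSMUSG00000002083, chromosome 7, 16308393 to 16318205, plus strand) encodes Puma, a target of p53 and of FoxO factors. It had 4.81, 3.77 and 3.14 CPM in vehicle clone4_1, clone4_2 and clone8_1 and 1.89, 4.14, 5.96 and 2.43 CPM in tamoxifen clone4_1, clone4_2, clone8_1 and clone8_2. The tamoxifen libraries spread on both sides of all vehicle ones. The log2 fold change was -0.12 ± 0.45 (SE; adjusted p = 0.960, edgeR), and its sign turned in 3 of 18 alternatives.

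Pmaip1 (ENSMUSG00000024521, plus strand) encodes Noxa, a p53 target that binds Mcl1. Values were 55.4, 26.3 and 98.3 CPM in vehicle clone4_1, clone4_2 and clone8_1, and 78.3, 77.3, 47.2 and 56.0 CPM in tamoxifen clone4_1, clone4_2, clone8_1 and clone8_2. The vehicle libraries held both the lowest and the highest value, and the clones went opposite ways: tamoxifen minus vehicle was 1.02 in clone 4 and -0.93 in clone 8 (log2). The interaction was -1.86 ± 0.50 (SE; adjusted p = 0.112, edgeR) and was not called. The clone 8 difference rests on 1 vehicle library. Over both clones the log2 fold change was 0.11 ± 0.38 (SE; adjusted p = 0.957, edgeR), and it ran from -0.25 without vehicle clone4_2 to 0.65 without vehicle clone8_1.

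**Figure D3:**
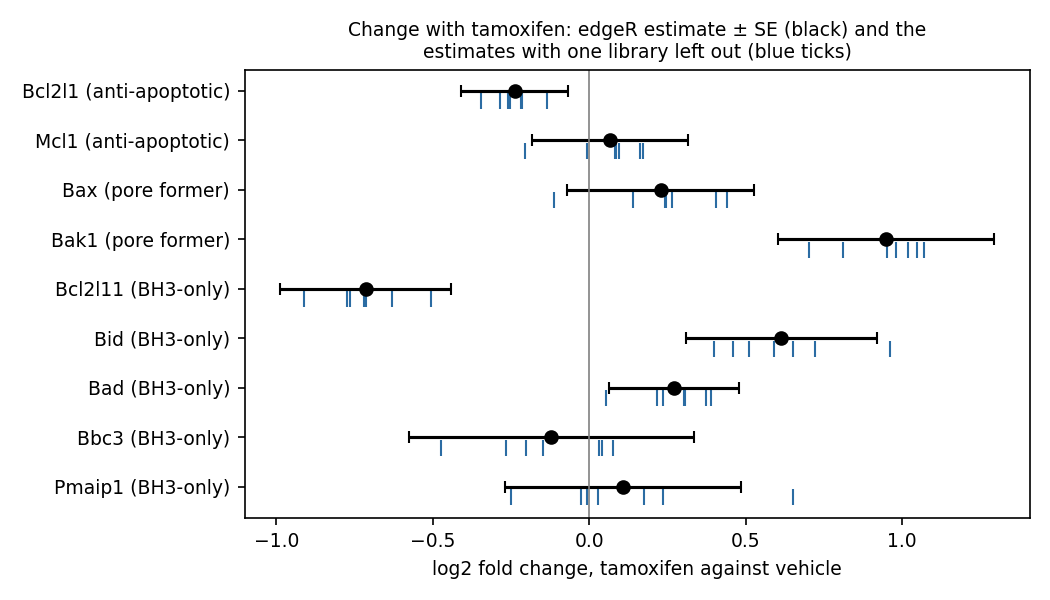
Log2 fold change, tamoxifen against vehicle, of the 9 tested members: black points are the edgeR estimate with its SE, and blue ticks are the estimates with 1 library left out. All ticks are below 0 for Bcl2l11 and Bcl2l1 and above 0 for Bak1, Bid and Bad, and those of Mcl1, Bax, Bbc3 and Pmaip1 cross 0.

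Levels were compared between members per length, as CPM per kilobase of typical transcript over the 7 libraries. Bax was highest, at 170 ± 45.5 CPM per kb (SD, n = 7), followed by Bad at 92.5 ± 17.3. Mcl1 (27.2 ± 7.11), Pmaip1 (24.7 ± 9.37) and Bcl2l1 (20.9 ± 2.94) formed a middle group, with the order of neighbours holding in only 4 of 7 libraries. Bid (7.57 ± 2.55), Bcl2l11 (4.52 ± 1.59), Bak1 (3.29 ± 1.40) and Bbc3 (2.06 ± 0.770) came next, with overlapping ranges between neighbours. Ranges did not overlap between Bad and Mcl1, between Bcl2l1 and Bid, or between Bbc3 and Bcl2. Bax exceeded Bad in 7 of 7 libraries although their ranges overlapped. With the longest transcript in place of the typical one, Mcl1 stood at 17.0 CPM per kb, below Pmaip1 (23.0) and Bcl2l1 (19.7), and Bcl2l11 stood at 2.23 beside Bak1 at 2.26, so these neighbours changed order.

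**Figure D4:**
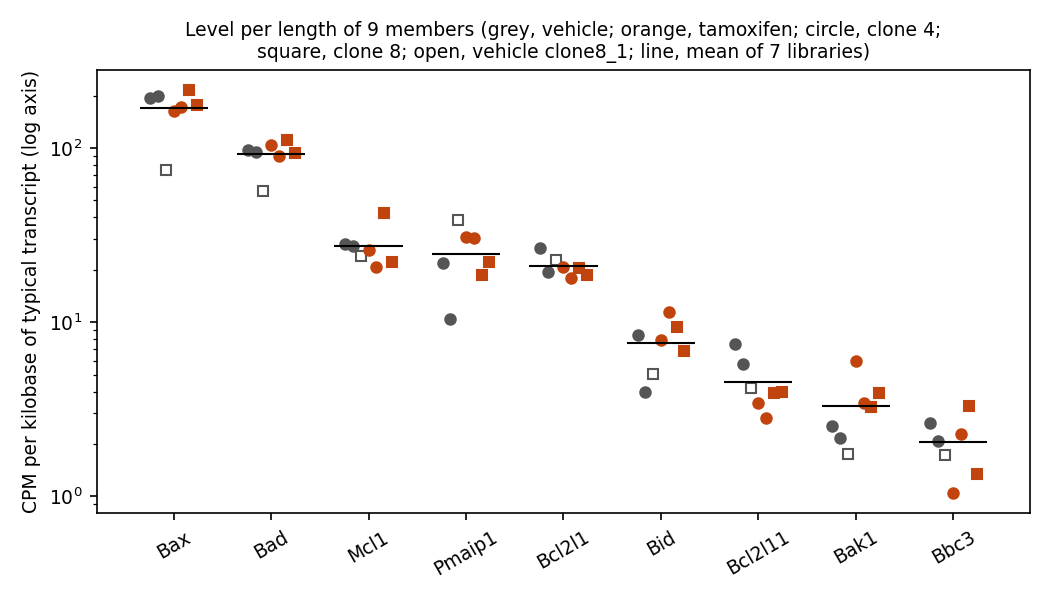
CPM per kilobase (log axis) of the 9 tested members in each library, in order of their mean (line); grey is vehicle, orange tamoxifen, circles clone 4, squares clone 8, and the open square vehicle clone8_1. Bax and Bad lie above the rest (170 and 92.5 CPM per kb), and Bax and Bad are lowest in vehicle clone8_1.

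Within a library, Bim transcript can be set against the anti-apoptotic pool without any scaling between libraries. The log2 ratio of Bcl2l11 to the sum of Bcl2l1 and Mcl1, all per length, was -2.87, -3.01 and -3.48 in vehicle clone4_1, clone4_2 and clone8_1. It was -3.76, -3.78, -4.00 and -3.35 in tamoxifen clone4_1, clone4_2, clone8_1 and clone8_2. Tamoxifen clone8_2 lay above vehicle clone8_1, so the groups overlapped for the ratio though not for the level. Anti-apoptotic genes made up 11.0% to 14.7% of the summed level of the 10 members in all libraries but vehicle clone8_1, where they made up 20.4% beside a low Bax.

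The rest of the pathway was read from lists drawn from general knowledge. Of 15 other family genes, 11 were tested, none was called, and 4 were higher and 7 lower. Bnip3, a mitochondrial BH3-like protein of mitophagy induced by low oxygen, was the 1 gene of these 11 whose groups did not overlap. Over all genes tested that share was 8.45%. Bnip3 had 160, 146 and 170 CPM in vehicle clone4_1, clone4_2 and clone8_1. In tamoxifen clone4_1, clone4_2, clone8_1 and clone8_2 it had 124, 120, 112 and 108 CPM. Its log2 fold change was -0.45 ± 0.14 (SE; adjusted p = 0.794, edgeR). Bcl2a1a, Bcl2a1b and Bcl2a1d had no count in any library, and Hrk had at most 2.

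Downstream, 19 of 20 genes of the caspase pathway were tested, none was called, and 7 were higher and 12 lower (median log2 fold change -0.20). Htra2, a protease released from mitochondria, and Dffb, the caspase-activated nuclease, had every tamoxifen library below every vehicle library. They were 2 of the 19 tested genes, beside 8.45% of all genes tested with groups apart in either direction. Vehicle libraries held Htra2 at 60.6 ± 1.48 CPM (SD, n = 3), whereas with tamoxifen it was at 47.5 ± 7.14 CPM (SD, n = 4). On the log2 scale that was a change of -0.35 ± 0.17 (SE). Dffb averaged 35.2 ± 4.37 CPM (SD, n = 3) without tamoxifen, against 24.4 ± 4.70 CPM (SD, n = 4) once it was added, a change of -0.53 ± 0.21 on the log2 scale (SE). Both had an adjusted p of 0.794 in edgeR.

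Upstream, p53 and its targets gave 13 tested genes of 14, with none called, none whose groups were apart, and a median log2 fold change of -0.091. The 2 with the highest level per length were Perp (123 CPM per kb) and Cdkn1a (88.2 CPM per kb), at -0.14 ± 0.24 and 0.07 ± 0.43 (SE). All 7 genes of the list of FoxO factors and other transcription factors of Bcl2l11 had higher values with tamoxifen (0.012 to 0.56, log2). Over all genes tested, 8408 of 16248 were higher. None of the 7 was called and no groups were apart. Within clone 4, Foxo4 (-0.066), Ddit3 (-0.10) and Tfdp1 (-0.045) were lower, and Foxo1, Foxo3, E2f1 and Mybl2 were higher. Foxo4 and Ddit3 had their lowest values in vehicle clone8_1 (1.07 and 6.80 CPM). Mybl2 and Foxo3, the highest of the 7 per length, were at 0.28 ± 0.21 and 0.37 ± 0.18 (SE). Among 14 tested of 15 genes of turnover and sequestration, 6 were higher and 8 lower, none was called, and the 14-3-3 genes Ywhae and Ywhaz stood at -0.039 ± 0.15 and -0.12 ± 0.15 (SE). Of 10 ERK feedback genes, which a rise of ERK activity is known to induce, 7 were higher and 3 lower, and none was called. Spry2 was the 1 of these 10 whose groups were apart (0.86 ± 0.21, SE), beside 8.45% of all genes tested.

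**Figure D5:**
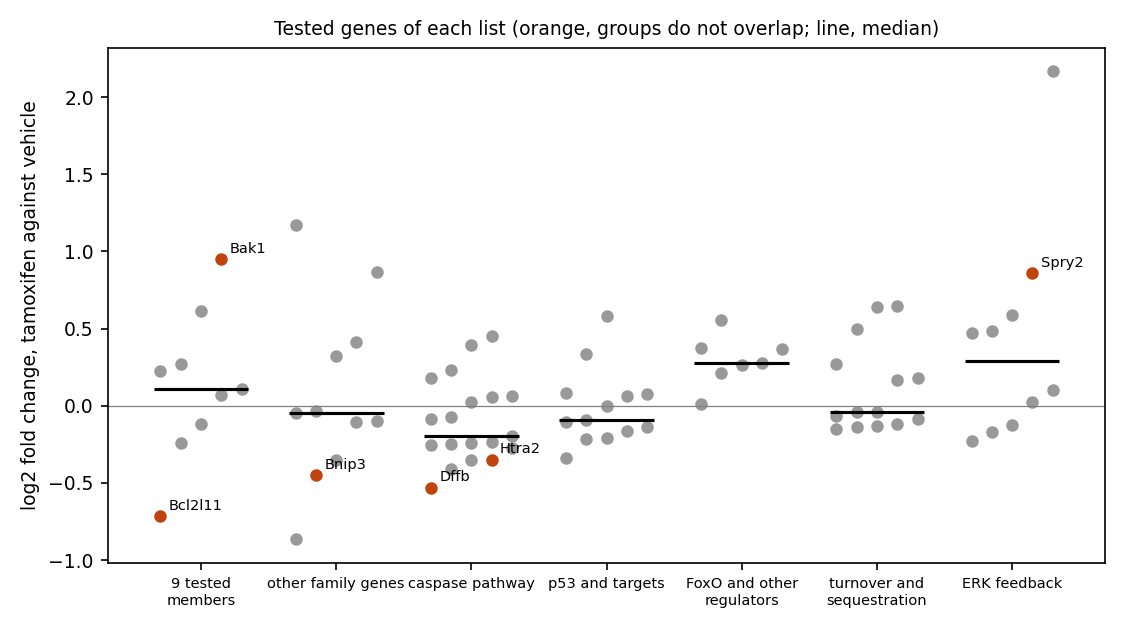
Log2 fold change, tamoxifen against vehicle, of each tested gene in the family and in 6 lists; orange dots are genes whose groups do not overlap, with their names, and lines are list medians. Apart from Bcl2l11, Bak1, Bnip3, Htra2, Dffb and Spry2, the genes shown have overlapping groups.

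The genes whose log2 CPM followed Bcl2l11 most closely over the 7 libraries were Mtmr4 (Pearson r = 0.982), Serpinb6c (0.980) and Ccdc32 (0.979), among 8052 genes with a mean of at least 10 CPM. Those that ran most opposite were Abl1 (-0.978), Gga1 (-0.967) and Fbp1 (-0.967). Of these genes, 37 had r above 0.9 and 38 below -0.9. These values come from 7 libraries that share their scaling and their conditions, and describe likeness only.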

How the data were processed

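RNA-seq counts per Ensembl gene, raw and not normalised, were used as the authors deposited them, 1 column per library. Per the submitters' processing notes, bcl2fastq 2.19.1, STAR 2.5.3a and build mm10 were used; the counting program, annotation, strand setting and handling of duplicates are not given in the sources used here. Libraries were amplified from 2 ng of RNA without stated molecular identifiers, so counting error is a lower limit. Symbols, positions and lengths are from GENCODE M21 (GRCm38), which matched 52489 gene IDs and left 147 unmatched; Marchf5 was matched by its older symbol.

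The test was edgeR 4.0.16 under R 4.3.3 (TMM factors, filterByExpr by group, quasi-likelihood test, condition as the only term, Benjamini-Hochberg adjustment over all genes, threshold 0.05). SE is the log2 fold change divided by the root of the F statistic. Log2 CPM used a prior count of 2, and exact permutation tests ran over all 35 assignments of libraries to groups. The code was tested on simulated data that varied less between libraries than these data do. That check says nothing of the power to call genes here. Alternatives used DESeq2 1.42.0, limma 3.58.1 (voom), other scalings, filters, covariates, a transcript-length offset and fewer libraries.

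The 10 members and the lists were chosen with earlier results of these data known. Besides the members, a gene of the 6 pathway lists was named when its groups were apart in CPM, and otherwise the 2 highest per length of a list were; for Bcl2l11 the 3 most and 3 least correlated genes were named. Bcl2l13, Ggnbp1, Gm45808, Gpr137, Bmf, Phlda3, Mdm2, the cell type markers named and the unexpressed genes were chosen after their values were seen. So were Foxo1, Foxo4, Ddit3, Tfdp1 and E2f1. Whether libraries came from separate litters is not given, so p-values measure the spread between these libraries.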

Additional observations from a re-analysis of the deposited data

Results flagged for a closer look

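For Bax, as for 3.16% of all genes tested, the clone by condition interaction passed the threshold, at 1.60 ± 0.28 (log2, SE; adjusted p = 0.0203, edgeR), from -0.22 in clone 4 and 1.38 in clone 8. Clone 8 has 1 vehicle library, so clone and that library cannot be told apart. Bax was at 62.3 CPM there and at 136 CPM or more in each of the other 6 libraries. The offset for transcript length took the value to 0.74 (adjusted p = 0.290, edgeR).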

How the results depend on the processing

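Each of the 9 tested members was refitted under 18 alternatives, 162 values in all. None was called under any, with adjusted p-values from 0.393 to 1.00 (edgeR, DESeq2 and limma), and 148 values kept their sign. Bcl2l11 ranged from -1.09 (clone 4 libraries only) to -0.51 (without vehicle clone4_1), and Bak1 from 0.70 to 1.07. The sign turned in 14 values. Without vehicle clone8_1, Mcl1 was at -0.0060 and Bax at -0.11, the extreme of its range without 1 library (-0.11 to 0.44). Mcl1 ranged from -0.21 to 0.17, Bbc3 from -0.48 to 0.077 and Pmaip1 from -0.25 to 0.65 in the same fits. Without both libraries numbered clone8_1, Mcl1 was at -0.28, Bax at -0.20 and Bad at -0.00015; with clone 4 libraries only, Mcl1 was at -0.25 and Bax at -0.23. The cause was not tested.

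The count of called genes was 0 in 16 of the 18 alternatives and was 4 with DESeq2 and 2 without both libraries numbered clone8_1. The number of members whose groups did not overlap was 2 to 3 without 1 library, a check added after the data were seen. The share of all genes tested rose from 8.45% to between 11.5% and 21.8%. Leaving out 1 library can only keep or raise this number and this share, so neither measures how stable the result is. Without both libraries numbered clone8_1 the number was 5 of 9 members (Mcl1, Bax and Bcl2l11 lower, Bak1 and Pmaip1 higher), beside 23.6% of all genes. Per length of the longest transcript, Mcl1 stood at 17.0, Bcl2l11 at 2.23 and Bad at 65.1 CPM per kb. The interaction for Bax was 0.74 with the length offset. Libraries of the same clone and number in both conditions did not deviate together (r = 0.0078, 0.021 and -0.068), and the replicate block called 0 genes, with Bcl2l11 at -0.75 ± 0.35 and Bak1 at 0.94 ± 0.39 (SE). The biological coefficient of variation was 0.456. Depth limits Bcl2 and Hrk, with at most 6 counts in a library.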

Other observations

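Bmf, a BH3-only gene outside the 10 members, was chosen with its values known. Its levels were 3.60, 0.467 and 2.58 CPM in vehicle clone4_1, clone4_2 and clone8_1 and 5.78, 5.95, 3.32 and 4.95 CPM in tamoxifen clone4_1, clone4_2, clone8_1 and clone8_2. Tamoxifen clone8_1 lay below vehicle clone4_1, and the log2 fold change was 1.17 ± 0.59 (SE; adjusted p = 0.794, edgeR; exact permutation p = 0.0571, two-sided).

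Phlda3, a p53 target that restrains Akt, had the largest log2 fold change among the 13 tested genes of the p53 list, 0.58 ± 0.23 (SE; adjusted p = 0.794, edgeR; exact permutation p = 0.0571, two-sided), while Mdm2 was at -0.34 ± 0.20 (SE).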
